A study of Mus musculus with 2 samples.

Results

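The Wnt and planar polarity pathway was read here through 61 genes, out of 12393 genes measured on Affymetrix MOE430A arrays of the embryonic mouse cochlea. The genes were taken by symbol from the platform annotation, with no measured value in the rule. They are all genes whose symbol begins with *Wnt*, *Fzd*, *Sfrp*, *Dkk*, *Dvl*, *Axin*, *Vangl*, *Celsr*, *Prickle* or *Tcf7*, together with *Ctnnb1*, *Apc*, *Lef1*, *Lrp5*, *Lrp6*, *Wif1*, *Frzb*, *Porcn*, *Ptk7*, *Ror1* and *Ror2*. Only probe sets that name 1 gene were used, and a gene with several was read from whichever had the highest mean level. *Tcf7* itself was not measured here, and 2 probe sets that name *Prickle4* together with *Tomm6* were not used.

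The study addressed what the lack of insulin-like growth factor I (IGF-I) changes in the cochlea at embryonic day 18.5. Mice heterozygous for a targeted disruption of *Igf1*, on a C57BL/6J background, were mated to obtain wild-type and null embryos. Per the labels, each array holds RNA from 8 cochleae, dissected with the otic capsule and without vestibular tissue. The study's methods describe several RNA pools of each genotype. How these pools relate to the 8 cochleae of each array, and whether a deposited column combines arrays, is not stated.

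The 2 arrays carry labels that contradict each other. The one titled +/+ is null by its source name and by its description, while the one titled −/− is wild type by both. Genotype was therefore not assigned, and the arrays go by their titles. Pairs of levels are always given in the order +/+ title, −/− title, and a difference is the second minus the first, so "lower" and "higher" refer to the −/− titled array. If the source names are right, each direction turns with respect to genotype. The 3 probe sets of *Igf1*, the disrupted gene, were at 11.42 and 11.03, 8.11 and 7.37, and 7.78 and 7.23, with differences of −0.42, −0.75 and −0.58. *Igf1* was thus lower by title yet above 7.10, the median level of all genes, on both arrays, and whether its probes lie outside the disrupted stretch was not tested.

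Wnt proteins are secreted, lipid-modified ligands that bind Frizzled receptors. With the co-receptors LRP5 and LRP6 they keep the destruction complex of Axin and APC from degrading β-catenin, which then acts with TCF and LEF factors on transcription. Planar cell polarity is a separate branch, in which Frizzled and Dishevelled act with Vangl, Celsr and Prickle proteins. In the cochlea this branch is known for the outgrowth of the duct and for the common orientation of hair bundles, and the β-catenin branch for proliferation and hair cell formation.

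Promoter sequences were looked up to show the DNA next to some of the genes. RefSeq sequences (GRCm38.p6) were found for 42 of the 61 genes, and the 250 bases before each start were searched on both strands for the TCF/LEF motif as CTTTGAA and as CTTTGAT, as well as CTTTGTA and also CTTTGTT. At least 1 match was found for 6 genes (14.3%), *Dkk1*, *Fzd7*, *Lef1*, *Tcf7l2*, *Wnt11* and *Wnt5b*, against 16.8% of all 27025 genes in the table. Median G and C content was 66.8%, against 52.4% over the whole table. Shown are the windows of *Frzb*, at chr2:80447397-80447646 (minus strand), *Fzd9*, at chr5:135251048-135251297 (minus strand), and *Sfrp2*, at chr3:83766071-83766320 (plus strand), which lay at high level, passed the limit explained below and had an entry. The window of *Dkk1*, at chr19:30549497-30549746 (minus strand), is shown for its 2 matches. Each runs 5′ to 3′ toward the start, and capitals mark a match.
Frzb: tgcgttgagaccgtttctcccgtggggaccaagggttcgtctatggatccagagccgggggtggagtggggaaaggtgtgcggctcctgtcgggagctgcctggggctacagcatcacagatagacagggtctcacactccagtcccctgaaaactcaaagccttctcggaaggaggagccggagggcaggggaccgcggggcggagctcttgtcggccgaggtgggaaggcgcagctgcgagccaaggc
Fzd9: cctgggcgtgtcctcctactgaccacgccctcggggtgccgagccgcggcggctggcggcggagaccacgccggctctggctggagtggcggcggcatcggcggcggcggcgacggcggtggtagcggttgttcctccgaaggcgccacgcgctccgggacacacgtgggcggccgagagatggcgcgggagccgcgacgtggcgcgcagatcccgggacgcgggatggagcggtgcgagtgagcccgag
Sfrp2: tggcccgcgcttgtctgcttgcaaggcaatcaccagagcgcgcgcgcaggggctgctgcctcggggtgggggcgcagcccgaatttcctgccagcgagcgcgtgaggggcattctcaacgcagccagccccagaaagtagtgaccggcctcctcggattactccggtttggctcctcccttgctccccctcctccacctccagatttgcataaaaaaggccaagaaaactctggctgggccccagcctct
Dkk1: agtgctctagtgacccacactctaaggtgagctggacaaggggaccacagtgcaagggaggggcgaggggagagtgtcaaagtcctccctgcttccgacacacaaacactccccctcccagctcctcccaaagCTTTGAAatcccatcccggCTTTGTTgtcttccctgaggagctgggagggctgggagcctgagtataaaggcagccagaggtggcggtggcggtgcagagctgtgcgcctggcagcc
The matches of *Dkk1* begin 117 and 98 bases before the start, and the other 3 windows hold none. The *Fzd9* window holds 42 CG pairs, those of *Frzb* and *Sfrp2* 16 each, and that of *Dkk1* 6. A match describes the letters of the window and is not a bound site.

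Levels are log2 values per probe set, and differences were centred on the median over all probe sets. A single array per title allows neither a test nor a replicate error. The one error that can be read from these arrays is the spread between probe sets of the same gene, which depends on level. Probe sets were therefore divided by mean level into 3 tiers of equal size, a low tier up to 5.06, a middle tier and a high tier above 7.68. The SD between probe sets of a gene was 1.17, 0.27 and 0.10 in these tiers. A limit of 2 times that SD (2.35, 0.54 and 0.20) was used beside the study's size limit of 1 log2 unit. The study combined its size limit with a probability limit, which was not computed here. The SD between probe sets holds no difference between RNA pools, dissections or hybridizations, which can move all probe sets of a gene together. A difference past the limit is therefore beyond the spread between probe sets only. The 61 genes fell 18, 24 and 19 into the low, middle and high tiers.

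Tissue markers also differed between the arrays, and their part in the results below was not tested. The log2 summed level of 10 stria and spiral ligament markers was 11.58 and 11.03, with 9 lower. It was 14.07 and 14.78 for skeletal muscle (10 of 10 higher), 9.67 and 10.58 for hindbrain (8 of 8 higher) and 11.42 and 8.36 for lung epithelium (8 of 8 lower). Cartilage and bone of the otic capsule gave 14.74 and 14.86 (7 of 8 higher) and the pituitary 8.04 and 9.82 (4 of 5 higher), with *Cga* listed at 0 under the +/+ title. Hair and supporting cells gave 11.94 and 11.72 (9 of 15 lower) and auditory neurons and Schwann cells 12.29 and 12.18 (5 of 6 lower). Red blood cell precursors gave 8.48 and 7.92 (5 of 6 lower), with *Epb42* listed at 0 under the +/+ title. Of the hindbrain, pituitary and red blood cell markers, 5, 3 and 4 were in the low tier on both arrays. So were 5 of hair and supporting cells, 2 of stria and spiral ligament and 1 of lung epithelium. Directions in that tier are uncertain, as the SD between probe sets there was 1.17. In bulk tissue, fewer cells of a type and less RNA per cell cannot be told apart. Where the RNA of the lung, pituitary, hindbrain and muscle markers came from was not tested.

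Across the 61 genes, the differences at high level were small, and those past 1 log2 unit all lay in the low tier. By that size 4 genes were higher (6.56%, against 5.54% of all genes) and 3 lower (4.92%, against 4.07%). In the low tier, 17.9% of all genes were higher and 13.8% lower by as much, whereas above the median level the shares were 0.323% and 0.0646%, with 0 of the 61. The level-dependent limit was passed by 10 genes (16.4%, against 11% of all genes). Of these 8 were lower (13.1%, against 4.88%) and 2 higher (3.28%, against 6.08%). The low tier held 1 higher and 1 lower gene (against 2.75% and 2.46% of all genes there), the middle tier 1 higher and 2 lower (5.89% and 3.22%), and the high tier 0 higher and 5 lower (8.59% and 7.91%). *Wnt2b* and *Wnt10b* were listed at 0 on both arrays. Of the other 59 genes 32 were lower and 27 higher (54.2% lower, against 48.2% of all genes not at 0 on both). The median over these 59 was −0.027, beside 0.0083 over all such genes. With the 2 genes at 0 it was −0.022, which is the value centring gives to a gene at 0 on both arrays.

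**Figure D1:**
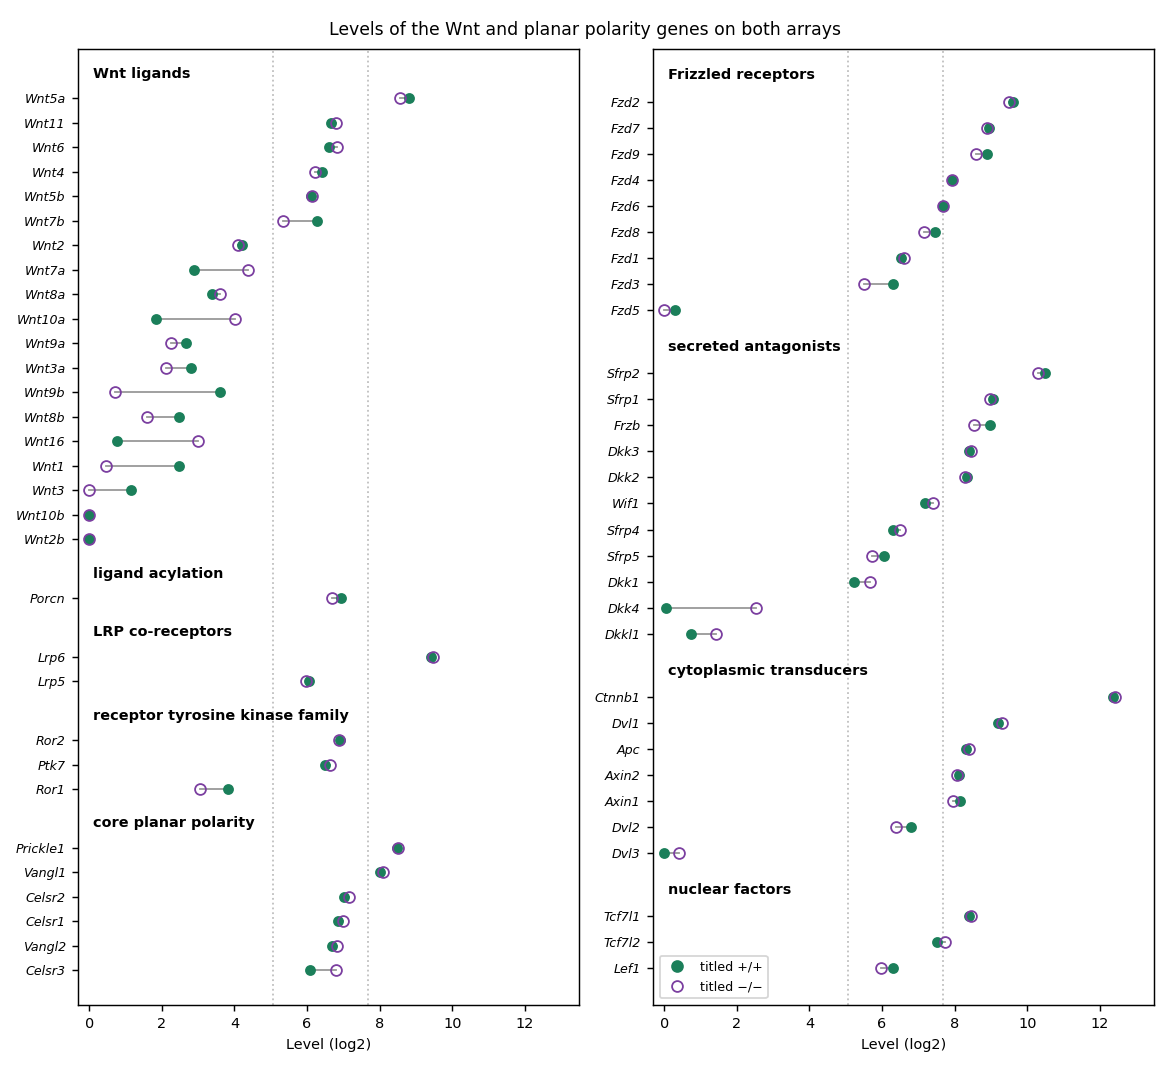
Log2 level of each of the 61 genes, by role, under the +/+ title (filled green) and the −/− title (open purple), with 1 array each and dotted lines at the tier borders of 5.06 and 7.68. The long connecting lines lie in the low tier, as for *Wnt9b*, while genes of the high tier have nearly coinciding points.

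*Wnt5a* was the one ligand in the high tier, and it was lower. WNT5A is best known for polarity and convergent extension, also in the cochlear duct. Its levels were 8.82 and 8.56. The difference of −0.28, a 1.21-fold change, passed the limit, and the second probe set gave −0.36.

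In the middle tier *Wnt7b*, known from epithelia of lung and kidney, stood at 6.27 and 5.35. Its difference of −0.95 passed the limit, but a second probe set, at 4.73 and 4.68, gave −0.075, and their mean of −0.51 was inside it. All 8 lung epithelium markers were lower too, by differences of −5.32 to −0.56, and their part in the *Wnt7b* value was not tested. The other ligands of this tier stayed inside the limit. *Wnt4* was at 6.40 and 6.23 (−0.19), *Wnt6* at 6.59 and 6.82 (0.21) and *Wnt11* at 6.65 and 6.79 (0.12). *Wnt5b* stood at 6.11 and 6.14 (−0.00066), whereas its weaker probe set gave 1.29.

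The low tier held 13 of the 19 ligands, and *Wnt9b*, at 3.60 and 0.72, was the only one of them past the limit of 2.35. Its difference was −2.90, and 0 when low values were raised to the 25th percentile. *Wnt1*, which patterns the border of midbrain and hindbrain, was at 2.46 and 0.47 (−2.01), and *Wnt3* was at 1.16 and listed at 0 under the −/− title. Past 1 log2 unit in the other direction were *Wnt7a*, at 2.90 and 4.36 (1.44), *Wnt10a*, at 1.85 and 4.02 (2.15), and *Wnt16*, at 0.77 and 3.01 (2.21). The low ligands thus differed in both directions. *Wnt2*, *Wnt3a*, *Wnt8a*, *Wnt8b* and *Wnt9a* gave −0.13, −0.72, 0.21, −0.90 and −0.42. *Porcn*, the acyltransferase that adds the lipid to Wnt ligands, was at 6.93 and 6.69 (−0.26), inside the limit.

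**Figure D2:**
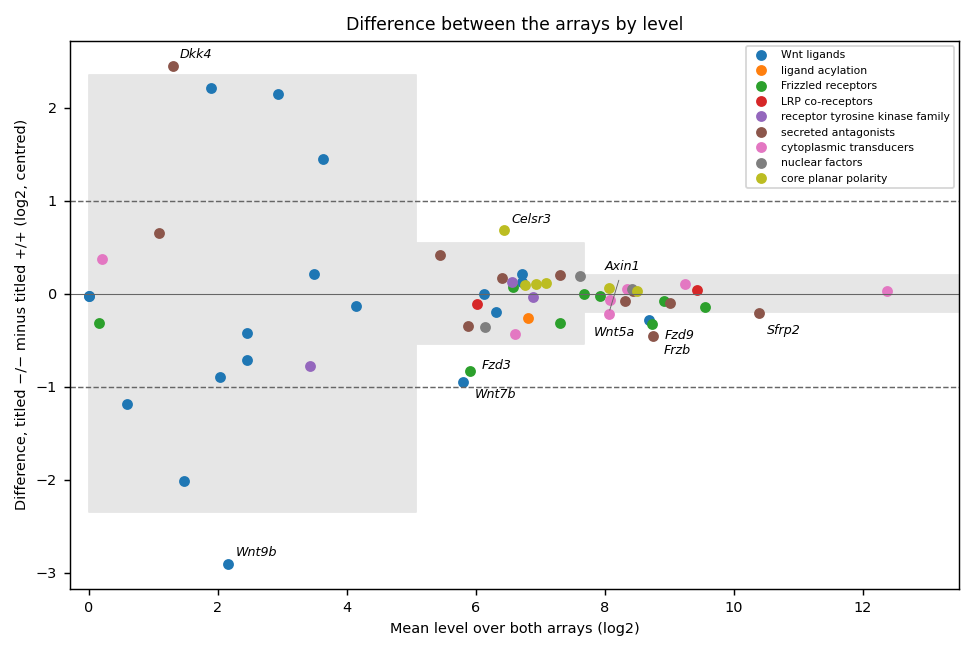
Centred log2 difference (−/− title minus +/+ title) of the 61 genes against mean log2 level, coloured by role, with the level-dependent limit as grey bands and dashed lines at 1 and −1. The 10 genes outside the bands are named, and 8 of them lie below 0.

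Of the 9 Frizzled receptor genes 2 passed the limit (22.2%, against 11% of all genes and 16.5% in the high tier, which held 4 of the 9). By direction 8 were lower and 1 higher (88.9% lower, against 48.2% of all genes not at 0 on both arrays), with a median of −0.15. The counts were 7 and 2 without centring, 6 and 2 with low values raised to the 25th percentile, and 6 and 3 with probe sets averaged. *Fzd9* stood at 8.89 and 8.58, a difference of −0.33 (1.26-fold) from its 1 probe set. *Fzd3*, which acts with *Fzd6* in hair bundle orientation, was at 6.31 and 5.50 (−0.83). Its next probe sets gave −0.29 and −0.60, and the weakest, listed at 0 under the +/+ title, gave 0.14. The strongest 3 were thus lower by differing amounts and the weakest was higher, and with all averaged *Fzd3* gave −0.40, inside the limit.

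*Fzd2* was at 9.61 and 9.49, and its 3 probe sets gave −0.17 to −0.12, each inside the limit. *Fzd8* was at 7.44 and 7.15 (−0.31) and *Fzd1* at 6.52 and 6.61 (0.068), also inside it. *Fzd4*, a receptor of vascular endothelium, was at 7.93 and 7.92 (−0.027), *Fzd6* at 7.66 and 7.68 (−0.0036) and *Fzd7* at 8.94 and 8.88 (−0.080). Their weaker probe sets stood apart, with 2.43 for *Fzd4* at 2.41 and 4.86, −1.22 for *Fzd6* at 5.68 and 4.49 and 2.12 for *Fzd7* at 1.25 and 3.39. Those of *Fzd4* and *Fzd6* were past the limit, in opposite directions. *Fzd5* was at 0.29 and listed at 0 under the −/− title.

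None of the co-receptors passed the limit. *Lrp6* was at 9.41 and 9.46 (0.035), with a second probe set at 0.060, and *Lrp5* at 6.06 and 5.97 (−0.11). Of the receptor tyrosine kinase family, *Ror2*, a receptor for WNT5A, was at 6.90 and 6.88 (−0.039), *Ptk7*, a polarity regulator, at 6.48 and 6.62 (0.12) and *Ror1* at 3.81 and 3.05 (−0.78). These too stayed inside it.

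Of 11 secreted antagonists 6 were higher and 5 lower (54.5% higher, against 51.8% of all genes not at 0 on both arrays). The limit was passed by 3 (27.3%, against 11% of all genes). *Frzb*, a secreted Frizzled-related protein known from cartilage, stood at 8.97 and 8.54, a difference of −0.45 (1.37-fold). Its second probe set, at 6.98 and 6.23, gave −0.77, so both passed in the same direction. Of the 8 cartilage and bone markers 7 were higher, among them *Acan* and *Col2a1* (0.20 and 0.015), and *Sp7* was lower (−0.30). Their part in the *Frzb* value was not tested. *Sfrp2* was at 10.49 and 10.31, and its −0.20 (1.15-fold) lay just past the limit. *Sfrp1* was at 9.05 and 8.98, and its 4 probe sets gave −0.11 to −0.062, all inside it. *Sfrp4* (6.31 and 6.50, 0.17) and *Sfrp5* (6.04 and 5.72, −0.35) of the middle tier were inside it as well.

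Dickkopf proteins such as DKK1 act on LRP5 and LRP6 rather than on the ligand. *Dkk4* was at 0.061 and 2.53, and its difference of 2.45 passed the limit of the low tier from a level close to 0, and became 0 with low values raised in the same way. *Dkk1* was at 5.22 and 5.66 (0.41) and *Dkk2* at 8.33 and 8.28 (−0.076). *Dkk3*, a divergent member, was at 8.41 and 8.46 (0.033), and its second probe set gave −0.089. *Dkkl1*, counted among the antagonists by its symbol only, was at 0.75 and 1.42 (0.65). *Wif1*, which binds Wnt ligands themselves, was at 7.20 and 7.42 (0.20), inside the limit of the middle tier.

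The cytoplasmic transducers differed little at high level. *Ctnnb1*, the β-catenin gene, was at 12.36 and 12.41, and its 3 probe sets gave −0.043 to 0.029. *Axin2*, a feedback inhibitor often used to report β-catenin activity, was at 8.11 and 8.06 (−0.066). *Axin1* was at 8.16 and 7.96, and its −0.21 lay just past the limit, while its second probe set gave 0.20 in the other direction. *Apc* was at 8.32 and 8.38 (0.044), with weaker probe sets at 0.35 and −0.12. Of the Dishevelled genes, *Dvl1* was at 9.18 and 9.31 (0.11), with a second probe set at −0.061. *Dvl2* was at 6.81 and 6.40 (−0.43, second probe set −0.97), inside the limit, and *Dvl3* was listed at 0 and at 0.40.

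The nuclear factors stayed inside the limit. *Tcf7l2* was at 7.51 and 7.72 (0.19), and its 4 probe sets were all higher, by 0.0086 to 0.28. *Tcf7l1*, mostly a repressor, was at 8.38 and 8.45 (0.045), and *Lef1*, itself a target of the pathway, at 6.31 and 5.98 (−0.36).

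All 6 core planar polarity genes were higher, against 51.8% of all genes not at 0 on both arrays and 53.2% in the middle tier, which held 4 of them. The direction held under every scaling run, but these runs all use the same 2 arrays. The median was 0.094, and 5 of the 6 stayed inside the limit. *Celsr3*, a cadherin known from axon tracts, was at 6.08 and 6.79, and its difference of 0.68 (1.61-fold) passed it with 1 probe set. The hindbrain markers *Zic1* and *Zic4* gave 0.98 and 0.85 and the neuronal tubulin *Tubb3* 0.67, while the neurofilament genes *Nefl* and *Nefm* both gave −0.18. Their part in the *Celsr3* value was not tested. *Vangl2*, whose mutation misorients hair bundles, was at 6.70 and 6.81 (0.089) and *Vangl1* at 8.02 and 8.10 (0.059). *Celsr1* was at 6.86 and 6.99 (0.10), *Celsr2* at 7.02 and 7.15 (0.11, second probe set 0.079) and *Prickle1* at 8.47 and 8.51 (0.024).

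Agreement between probe sets depended on level. Several probe sets were present for 22 genes, and in 13 of these all differences had 1 sign (59.1%, against 46.3% of 4956 such genes on the array). The 13 include *Wnt8b*, whose weaker probe set was listed at 0 on both arrays and has its sign from centring only. The shares were not matched for the number of probe sets per gene. In the high tier, where 6 genes had several, their differences lay within 0.17 of each other. The other 39 genes had 1 probe set and no such repeat.

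**Figure D3:**
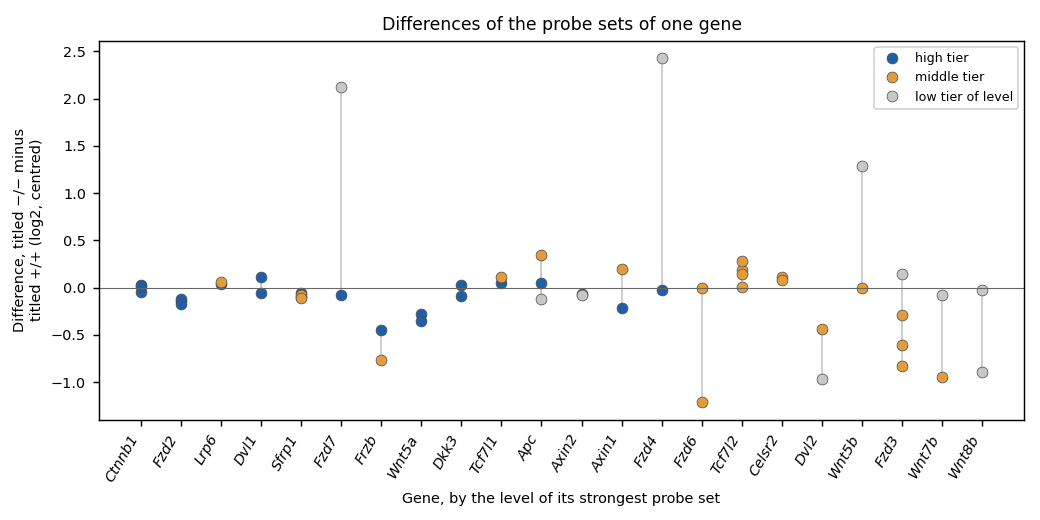
Centred log2 difference (−/− title minus +/+ title) of every probe set of the 22 genes with several, 1 column per gene, coloured by tier of level. Points of the high tier (blue) lie close together, and those of the low tier (grey) reach 2.43 for *Fzd4* and 2.12 for *Fzd7*.

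Other genes of the pathway, 89 in 7 lists, had a median difference of −0.035. The level-dependent limit was passed by 13 of them (14.6%, against 11% of all genes). Of these 11 were lower (12.4%, against 4.88%) and 2 higher (2.25%, against 6.08%). Of the 89, 59 lay in the high tier, where 16.5% of all genes passed, 7.91% lower and 8.59% higher. The 14.6% covers all tiers, so it cannot be set against that share directly. By 1 log2 unit 0 were higher and 1 was lower, *Cer1*, at 2.51 and 1.11 in the low tier.

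Among 5 genes of secretion and ligand carriers 1 was lower past the limit (20%, against 4.88% of all genes and 7.91% in the high tier). It was *Wls*, the carrier that brings Wnt ligands to the cell surface, at 8.64 and 8.31 (−0.35). The proteoglycan genes *Gpc3* and *Sdc1* gave 0.052 and −0.15. Of 5 genes of the R-spondin and LGR module, whose ligands and receptors strengthen Wnt signals, 2 were lower past the limit (40%, against the same shares). They were *Lgr5*, a receptor marking supporting cells, at 8.69 and 8.42 (−0.29), and *Lgr6*, at 5.54 and 4.95 (−0.61). A list of 5 genes makes such shares coarse. The ligands *Rspo1* and *Rspo2* gave 0.056 and −0.18. *Rnf43*, in the list but neither ligand nor LGR receptor, gave −0.27.

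Of 8 other antagonists 1 was lower and 1 higher past the limit (12.5% each, against 4.88% and 6.08% of all genes). These were *Shisa2*, which holds Frizzled back inside the cell, at 8.61 and 8.36 (−0.27), and *Apcdd1*, at 8.15 and 8.39 (0.22). *Igfbp4*, an IGF binding protein that also blocks Wnt signals, was at 12.26 and 12.24 (−0.035), and *Sostdc1* gave −0.12.

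Of 16 destruction complex partners 2 were lower past the limit (12.5%, against 4.88% of all genes and 7.91% in the high tier). They were the kinase gene *Csnk2a1* (−0.25) and *Btrc* (−0.31), part of the ligase that marks β-catenin. The strongest 3, *Ppp2ca*, *Csnk1a1* and *Tnks2*, gave −0.12, −0.11 and 0.13. Of 20 nuclear cofactors 1 was higher past the limit (5%, against 6.08% of all genes). It was the β-catenin partner *Bcl9*, at 7.81 and 8.07 (0.24), while *Ctbp1*, *Tle5* and *Hbp1* gave 0.020, −0.10 and 0.049.

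Of 21 measured targets of β-catenin signalling, *Axin2* and *Lef1* among them, 4 were lower and 1 higher past the limit, against 4.88% and 6.08% of all genes. These 5 were among the 10 targets in the high tier, where 7.91% of all genes were lower and 8.59% higher. The median was −0.027 (−0.14 above the median level). Lower were *Tnfrsf19*, at 8.96 and 8.68 (−0.30), *Ccn1*, at 9.39 and 9.11 (−0.30), *Ccn4*, at 9.25 and 9.02 (−0.25), and *Lgr5*, and higher was *Apcdd1*. The cell cycle gene *Ccnd1* gave −0.12 and *Cd44* 0.062.

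Of 22 planar polarity effectors 2 were lower past the limit (9.09%, against 4.88% of all genes and 7.91% in the high tier). They were *Adgra3*, at 9.34 and 9.12 (−0.24), and the syndecan gene *Sdc4*, at 8.49 and 8.23 (−0.29). The small GTPase genes *Rac1*, *Cdc42* and *Rhoa*, which act on the cytoskeleton, gave 0.0025, −0.022 and −0.036.

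**Figure D4:**
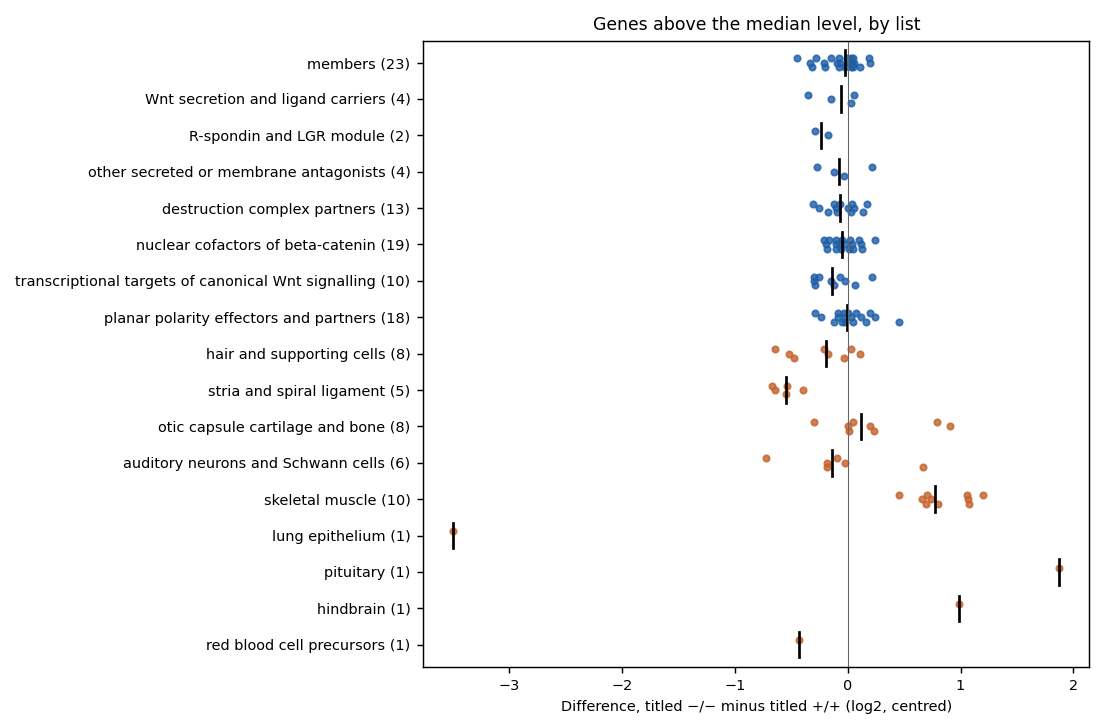
Centred log2 difference (−/− title minus +/+ title) of genes above the median level of 7.10, 1 point per gene and a bar at the median, for the 61 genes and 7 pathway lists (blue) and 9 marker lists (orange), with the number plotted in brackets. Pathway genes lie between −0.45 (*Frzb*) and 0.46 (*Sec24b*), while skeletal muscle markers lie from 0.45 (*Acta1*) to 1.20 (*Tnni1*) and *Sftpc* at −3.49.

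Markers of stria and spiral ligament above the median level were lower like *Wnt5a*, *Frzb*, *Fzd9*, *Wls* and *Lgr5*. *Coch*, *Dct*, *Pmel*, *Pou3f4* and *Tbx18* gave −0.40, −0.54, −0.54, −0.64 and −0.67. Of the hair and supporting cell markers in the high tier, *Tecta* and *Tectb* were lower past the limit (−0.52 and −0.64), while *Myo6*, *Sox2*, *Otog* and *Fgfr3* stayed inside it (−0.18, −0.036, 0.030 and 0.11). The part of these cells in the pathway values was not tested.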

How the data were processed

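The deposited table holds log2 levels of 22690 MOE430A probe sets for 2 arrays. The authors' methods name MAS5.0 and RMA for an initial analysis and multi-mgMOS for the expression levels, without saying which gave the deposited values. Controls (64) were left out. Of the rest 20380 name 1 gene, 691 several and 1555 none, and all 61 symbols matched RefSeq. Arrays were grouped by title, and 0.022 was subtracted from each difference. The number of arrays limits the precision. Calculations used Python 3.11.15, numpy 2.4.6, pandas 2.3.3 and statsmodels 0.14.6, with figures from matplotlib 3.10.9, and were tested on simulated data. Every one of the 61 genes is accounted for. Of each list the 3 genes of the highest level are named, and those past the level-dependent limit above the median level. *Lgr6*, *Rnf43*, *Cer1*, *Sec24b* and the single markers were named after their values were seen. Genes and lists were chosen with earlier results of these data known. Alternatives changed centring, scaling, the floor, the level filter, the choice of probe set and the limits.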

Additional observations from a re-analysis of the deposited data

How the results depend on the processing

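No paired analysis was possible because each title has 1 array. The median difference of the 61 genes ran from −0.051 (loess) to 0 (no centring, or low values raised). Raising low values to the 25th percentile left 0 genes higher and 0 lower by 1 log2 unit (against 0.904% and 0.460% of all genes). It left 6 of the 61 past the level-dependent limit, a share below the 12.7% of all genes. Keeping genes above the median level left 0, 0 and 5 of 23 genes (against 0.323%, 0.0646% and 13.8% of all genes there). A size limit of 0.5 gave 8 lower and 6 higher genes (8.60% and 12.0% of all genes), and 3 times the SD left 4 past the limit (3.87% of all genes), *Frzb*, *Fzd3*, *Fzd9* and *Wnt7b*. Over 10 settings, the reported one included, *Frzb* and *Fzd9* passed in 10, *Wnt5a* in 9, *Celsr3*, *Fzd3* and *Wnt7b* in 8, *Wnt9b* in 7, *Dkk4* and *Sfrp2* in 6 and *Axin1* in 5. The setting without genes at 0 on both arrays repeats the reported calls. The setting above the median level leaves out *Celsr3*, *Fzd3*, *Wnt7b*, *Wnt9b* and *Dkk4*, which could not pass there. Averaging probe sets ended the calls of *Axin1* (−0.0090), *Fzd3* (−0.40) and *Wnt7b* (−0.51). It brought *Dvl2* (−0.70), *Fzd4* (1.20), *Fzd6* (−0.61) and *Fzd7* (1.02) past the limit, so that 11 genes passed (9.72% of all genes did). Leaving out probe sets ending in _x_at or _s_at gave 1.29 for *Wnt5b*. Of the other pathway genes 9 to 14 passed. Leaving out genes at 0 on both arrays, an alternative chosen after seeing the data, kept the counts at 4, 3 and 10. This outcome was fixed in advance, since *Wnt2b* and *Wnt10b* were in none of these counts. Levels in the low tier, where the SD was 1.17, limit what can be read there.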
